A study of Homo sapiens with 18 samples.

Results

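Axonal transport motors were described through 10 of the 11963 genes with a probe set of their own, DYNC1H1, DYNC1I2, DYNC1LI2, DCTN1, DCTN2, KIF1B, KIF5B, KIF5C, KIF3A and KLC1. The members are all probe sets (short oligonucleotide sets that each read part of a transcript) that the platform's annotation gives to exactly 1 of these genes, which are 16 of the 19065 probe sets with a single gene symbol and of 22283 on the array. Of the 10 genes, 5 had 1 probe set, 4 had 2 and KLC1 had 3. The cells were SH-SY5Y, an established line from a human neuroblastoma that keeps noradrenergic and neuron-like traits. They were either left untreated or exposed to sarin, an organophosphate nerve agent that blocks acetylcholinesterase, at 5 ppm. RNA was taken at 3, 24 or 48 h, which gives 6 groups of 3 Affymetrix arrays, 18 arrays in all, and the series asks how expression under sarin differs over time. The labels name no vehicle for the untreated groups. The labels name 6 flasks per group beside the 3 arrays and do not tie flasks to arrays, so the p-values rest on array-to-array spread that could be technical.

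Neurons move cargo along microtubules, which in axons point their plus ends away from the cell body. Kinesins walk mostly towards the plus end and carry vesicles, mitochondria and RNA granules outwards, while cytoplasmic dynein, with its cofactor dynactin, carries endosomes, autophagosomes and neurotrophin signals back to the cell body. In a dividing line such as this one the same motors also place the nucleus, the Golgi and the spindle, and dynein acts at kinetochores.

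The promoters of the genes with a sarin call at 24 h are shown here, since these are the genes the 24 h results turn on. The windows are the 250 bases before the annotated start on the gene's strand, from RefSeq on GRCh38.p14, at chr14:101964323-101964572 on the plus strand for DYNC1H1 and chr10:32056426-32056675 on the minus strand for KIF5B. Capitals mark matches on either strand to the GC box GGGCGG, to CCAAT, the CCAAT box, and to TGACG, which is part of the cAMP response element.
DYNC1H1: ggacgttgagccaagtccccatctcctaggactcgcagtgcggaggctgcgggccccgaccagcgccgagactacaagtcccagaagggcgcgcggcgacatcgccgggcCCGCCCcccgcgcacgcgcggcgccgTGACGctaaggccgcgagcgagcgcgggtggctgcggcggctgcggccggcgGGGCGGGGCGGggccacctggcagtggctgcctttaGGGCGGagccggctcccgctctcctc
KIF5B: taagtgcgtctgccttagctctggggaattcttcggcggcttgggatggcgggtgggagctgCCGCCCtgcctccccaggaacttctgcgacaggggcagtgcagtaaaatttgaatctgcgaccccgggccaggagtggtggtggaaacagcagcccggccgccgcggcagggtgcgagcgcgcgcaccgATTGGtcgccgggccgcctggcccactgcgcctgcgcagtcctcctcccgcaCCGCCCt
The DYNC1H1 window held 4 GC boxes and 1 TGACG match at a GC content of 76.8%. The KIF5B window held 2 GC boxes and 1 CCAAT box at 68.8%, and the median over all 35116 such windows was 58%. All 10 genes had a window, and 9 of them held a GC box, against 42.6% of all windows. A CCAAT box was in 5 of the 10 against 32% of all windows, and TGACG in 4 of the 10 against 21.2%. DYNC1I2 was the 1 gene of the 10 without a GC box. For the 10 genes the window lay at the outermost start of the gene, a choice not made for all windows. The shares are therefore of unlike sets. A match describes these letters only and is no measured binding site.

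Before the values, 1 group has to be set apart. The 3 sarin arrays at 48 h had GAPDH 3′ over 5′ signal ratios, a sign of RNA integrity, of 2.15 to 2.3, against a range of 0.696 to 1.17 on the other 15 arrays. Their background, taken as the 90th percentile over 27 probe sets for bacterial genes that were not spiked in, was 410.7 to 443.2 against 97 to 182.9 elsewhere, and they correlated with the other arrays at r of 0.65 to 0.746 where those correlated among themselves at 0.907 to 0.965. A smaller gap was present at 24 h, where the GAPDH ratio ran from 1.05 to 1.17 on the sarin arrays and from 0.811 to 0.941 on the untreated ones, and the median signal from 314.9 to 345.3 and from 397 to 413.9. The ACTB ratio ran from 1.56 to 1.64 and from 1.46 to 1.5. Of 14 noradrenergic neuroblastoma markers 13 were above background on every control array, while TH was not above background on any of the 18 arrays. Substrate-adherent cells are a second cell form in this line. Their 14 markers summed to 66780 to 68030 on untreated arrays at 24 h and to 41130 to 43140 on sarin arrays. On untreated arrays at 3 h that sum ran from 59860 to 117000. It weighs bright probe sets most, here VIM, LGALS1 and ANXA2 (median signal 24610, 20540 and 8944). The noradrenergic sum at 24 h ran from 117100 to 133700 untreated and from 132900 to 134000 with sarin. Of the 11 substrate-adherent markers tested 5 were lower and 0 higher with sarin at 24 h, and of 13 noradrenergic markers tested 3 were lower and 2 higher. Of all 8054 genes read by their brightest probe set 3.99% were lower and 3.4% higher. The part of these measures in the results below was not tested. In these bulk samples, fewer cells of a type and less RNA per cell cannot be told apart.

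Levels are given as deposited signal, a linear intensity, and changes as log2(signal + 16) differences with their standard error (SE) from a limma fit over all 18 arrays. A change is called where its Benjamini-Hochberg adjusted p over the 11439 probe sets tested is under 0.05. A filter on low values kept probe sets with a mean log2 level of at least 8.106, and 15 of the 16 members passed it. The exception was the DCTN2 probe set 214384_s_at. Signals of different probe sets depend on the probes and are not set against each other.

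**Figure D1:**
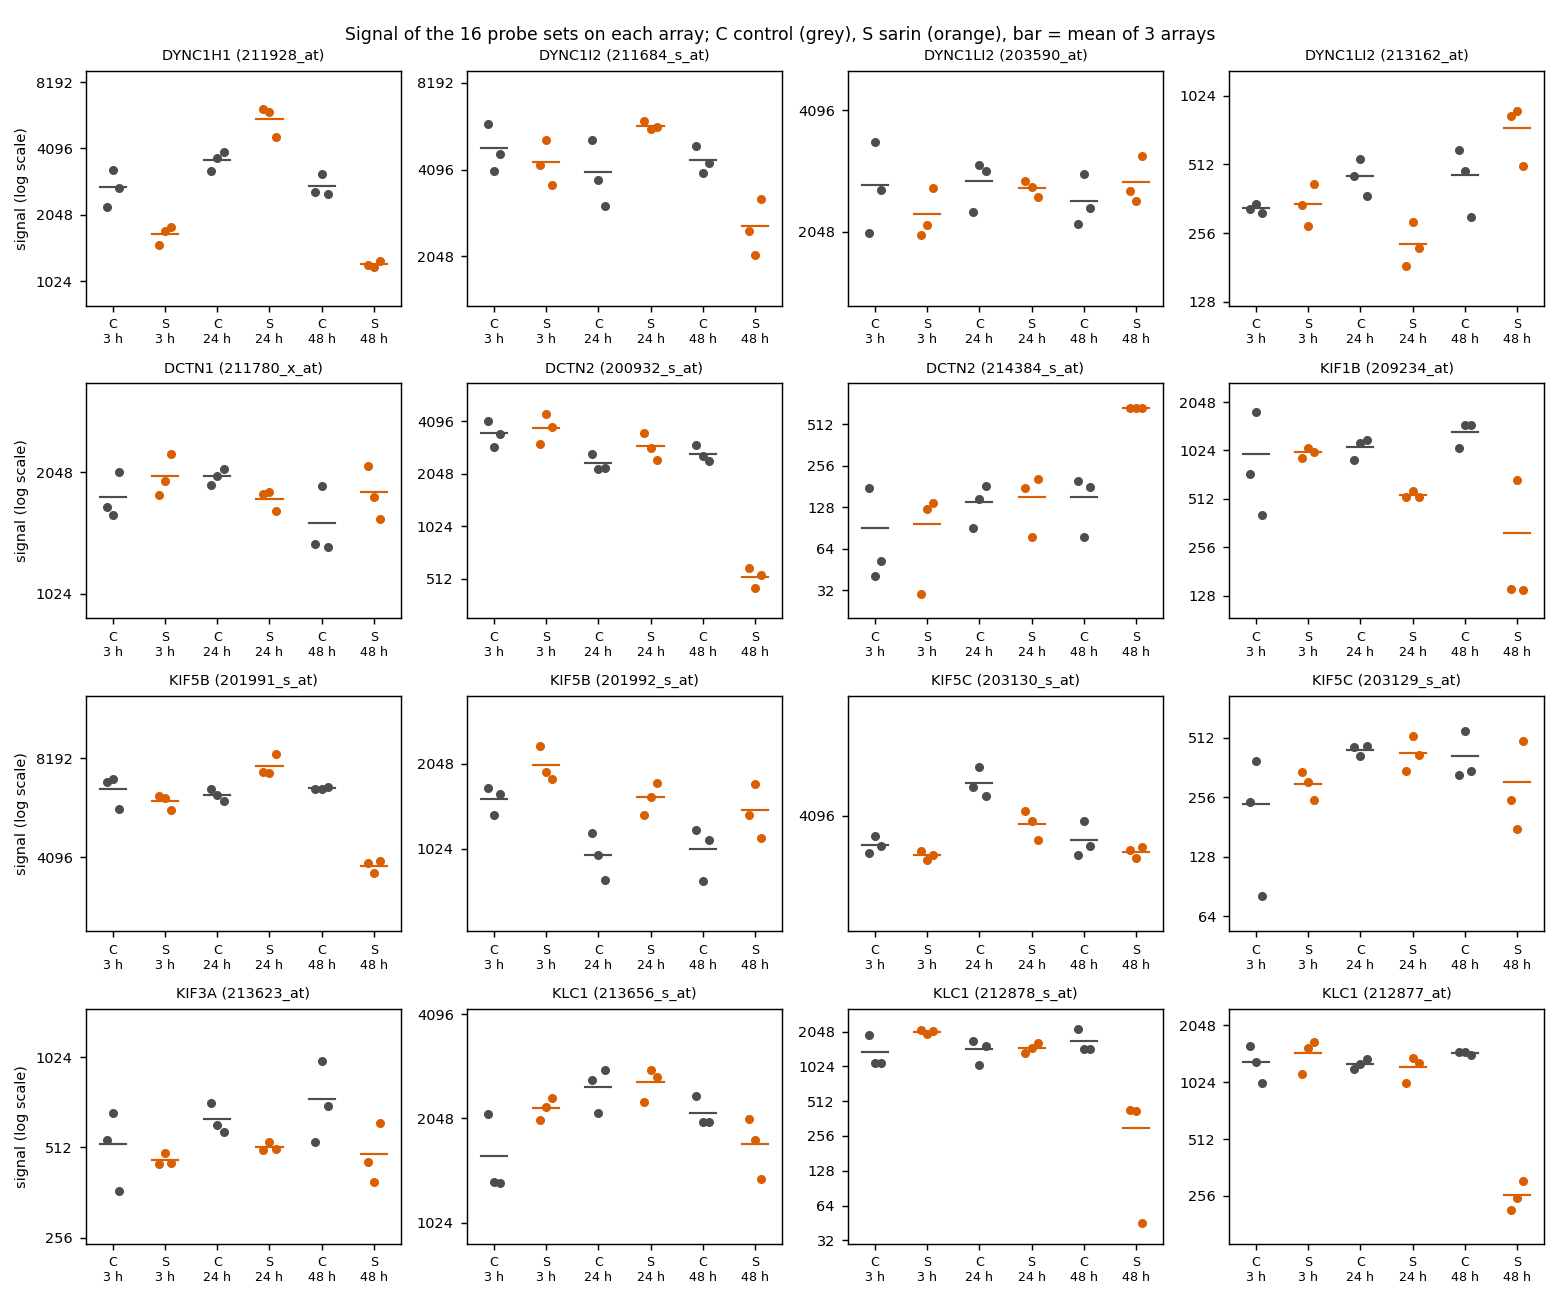
Signal (log2 axis) of the 16 member probe sets on each of the 18 arrays, 1 panel per probe set, with untreated (C) and sarin (S) arrays at 3, 24 and 48 h and a bar at each group's mean. The DYNC1H1 panel has its highest points in the sarin group at 24 h, from 4622 to 6150, and its lowest in the sarin group at 48 h, from 1191 to 1264.

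DYNC1H1 encodes the cytoplasmic dynein heavy chain, the motor subunit that holds the ATPase ring and the microtubule-binding stalk. Its 1 probe set, 211928_at, read 2216, 3288 and 2718 in untreated cells at 3 h and 1499, 1727 and 1809 with sarin. Every sarin array lay under every control array at 3 h. At 24 h the untreated arrays read 3243, 3704 and 3958 and the sarin arrays 6150, 5963 and 4622, so that all sarin arrays lay above all controls, on the other side from 3 h. At 48 h the untreated arrays read 2602, 3141 and 2536 and the sarin arrays 1209, 1191 and 1264, again with no overlap and with sarin low.

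The DYNC1H1 change at 3 h was -0.69 ± 0.16 (SE, n = 3) on the log2 scale and did not pass (limma, adjusted p = 0.277), nor did it in any of 19 alternatives (adjusted p from 0.0922 to 0.9996). At 24 h the gene rose by 0.61 ± 0.16, 1.53-fold (adjusted p = 0.0255), and at 48 h it fell by 1.16 ± 0.16 (adjusted p = 3.32e-06). The difference between the sarin effects at 24 and 3 h was tested as an interaction in the same fit and was 1.30 ± 0.22 (adjusted p = 0.00921). DYNC1H1 was the 1 member of 15 called in that test, in which 0.717% of all probe sets were called (0.262% higher and 0.455% lower). The interaction stayed past the threshold when any 1 of the 12 arrays compared was left out, with adjusted p of at most 0.0429, and was lost with a value of 1.33 under scaling to the hybridisation controls (spike-in scaling) (adjusted p = 0.9998). In 25 alternatives it was called in 24.

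The 24 h call of DYNC1H1 by itself was less firm. It was lost without control replicate 1 (0.53, adjusted p = 0.0868), without control replicate 2 (0.63, adjusted p = 0.0802), without sarin replicate 1 (0.53, adjusted p = 0.117) and without sarin replicate 2 (0.56, adjusted p = 0.116). Quantile normalization gave 0.43 (adjusted p = 0.125), and spike-in scaling 0.65 (adjusted p = 0.496). Over its 20 alternatives the adjusted p ran from 8.62e-05 to 0.496, and 14 called it. The untreated cells at 24 h were themselves at 3635 ± 363 (SD) against 2740 ± 536 at 3 h, a difference of 0.42 ± 0.16 that did not pass (adjusted p = 0.118). Set against the mean of the 3 and 48 h controls, the 24 h sarin arrays were 1.02 higher (adjusted p = 8.62e-05), so the size of this change depends on which controls are used. In order of mean signal the groups ran sarin 48 h, sarin 3 h, control 3 h, control 48 h, control 24 h and sarin 24 h. Of neighbours in that order, the arrays overlapped for control 3 h and control 48 h alone, and control 3 h also overlapped control 24 h.

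DYNC1I2 encodes an intermediate chain, which links the heavy chain to dynactin and to cargo. Its probe set read 5888, 4041 and 4636 in 3 h controls and 4262, 5167 and 3626 with sarin, and the groups overlapped. At 24 h the controls read 5195, 3759 and 3060 and the sarin arrays 6024, 5674 and 5745. All sarin arrays were above all controls, but the controls spread over more than the gap, and the change of 0.57 ± 0.20 did not pass (adjusted p = 0.0846). At 48 h DYNC1I2 read 4953, 3982 and 4318 in controls and 2509, 2065 and 3240 with sarin, and fell by 0.78 ± 0.20 (adjusted p = 0.0019), a call lost under quantile normalization at -0.36 (adjusted p = 0.159).

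DYNC1LI2 encodes a light intermediate chain, through which dynein binds cargo adaptors. Its probe sets differed in the size of their changes. The brighter, 203590_at, had group means from 2261 to 2728, with overlapping sarin and control arrays at all 3 times and changes of -0.22 to 0.16. The dimmer, 213162_at, read 457, 539 and 373 in the 24 h controls and 185, 285 and 220 with sarin. All sarin arrays lay below all controls, and the change of -0.95 ± 0.29 did not pass in the fit over 18 arrays (adjusted p = 0.0566). At 48 h the same probe set read 594, 480 and 301 in controls and 834, 879 and 502 with sarin. It rose by 0.68 ± 0.29 (adjusted p = 0.0474) although the arrays overlapped. That call held in 6 of 16 alternatives and turned to -1.29 (adjusted p = 0.00337) under spike-in scaling. It was lost without control replicate 2 (0.74, adjusted p = 0.0667), control replicate 3 (0.41, adjusted p = 0.249), sarin replicate 1 (0.57, adjusted p = 0.132) or sarin replicate 2 (0.54, adjusted p = 0.153).

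Dynactin is the multi-subunit complex that activates dynein and ties it to cargo and microtubules. DCTN1 encodes its largest subunit, p150Glued, which reaches to the microtubule. The DCTN1 probe set read 1899, 2008 and 2085 in the 24 h controls and 1804, 1825 and 1637 with sarin. The groups did not overlap, by a margin smaller than the range within either, and the change was -0.19 ± 0.16 (adjusted p = 0.514). At 3 and 48 h its changes were 0.17 and 0.26, neither called.

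DCTN2 encodes dynamitin, the subunit whose excess takes dynactin apart. Its brighter probe set, 200932_s_at, read 2662, 2179 and 2217 in the 24 h controls and 3511, 2880 and 2446 with sarin, which overlapped (0.31 ± 0.18, adjusted p = 0.285). At 48 h it read 2968, 2572 and 2432 in controls and 585, 455 and 538 with sarin, and fell by 2.30 ± 0.18 (adjusted p = 1.88e-09). The other DCTN2 probe set, 214384_s_at, which the level filter left out, differed the other way on the same arrays. It read 199, 78 and 181 in 48 h controls and 676, 667 and 674 with sarin, a difference of 2.12 ± 0.55 (adjusted p = 0.00274 in the fit without the filter). Of the controls, 1 of 3 was not above background. Background was 410.7 to 443.2 on these sarin arrays and 103.1 to 161.1 on the controls, and with no filter the median of all probe sets was 0.57. The part of background in this difference was not tested.

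Conventional kinesin, or kinesin-1, is a pair of heavy chains of the KIF5 family with a pair of light chains. KIF5B encodes the heavy chain made in most cell types. Its probe set 201992_s_at read 1163, 973 and 794 in untreated cells at 24 h and 1353, 1557 and 1755 with sarin. No arrays overlapped, and KIF5B rose by 0.67 ± 0.20 (adjusted p = 0.0485). The second probe set, 201991_s_at, read 6616, 6337 and 6074 in the same controls and 7445, 7365 and 8446 with sarin. It also separated the groups with sarin high, at 0.29 ± 0.12, and did not pass (adjusted p = 0.136).

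The KIF5B call lies close to the threshold and held in 8 of 19 alternatives, with adjusted p from 0.0034 to 0.419. It was lost with no level filter (adjusted p = 0.0687), with no trend (adjusted p = 0.0674), under quantile normalization (0.66, adjusted p = 0.114) and under spike-in scaling (0.71, adjusted p = 0.419). It was also lost without control replicate 2 (0.68, adjusted p = 0.136) or 3 (0.53, adjusted p = 0.17) and without sarin replicate 1 (0.77, adjusted p = 0.0808), 2 (0.67, adjusted p = 0.14) or 3 (0.58, adjusted p = 0.145). Without sarin 201992_s_at read 1674, 1345 and 1602 at 3 h and 1193, 788 and 1100 at 48 h. Against 3 h the untreated cells were at -0.66 ± 0.20 at 24 h (adjusted p = 0.0597) and at -0.59 ± 0.20 at 48 h (adjusted p = 0.225), neither called. Against the 3 and 48 h controls together the 24 h sarin arrays were 0.31 higher (adjusted p = 0.293), and 2 of the 3 sarin arrays at 24 h lay within the range of the 3 h controls. At 3 h the sarin arrays read 2367, 1908 and 1801, all above their controls, at 0.39 ± 0.20 (adjusted p = 0.542).

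At 48 h the KIF5B probe sets parted. The arrays of 201991_s_at read 6621, 6598 and 6670 in controls and 3939, 3660 and 3983 with sarin, and it fell by 0.78 ± 0.12 (adjusted p = 1.02e-05). Quantile normalization took that value to -0.08 (adjusted p = 0.559). The arrays of 201992_s_at read 1351, 1739 and 1115 with sarin, overlapping the controls, at 0.44 ± 0.20 (adjusted p = 0.0579).

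KIF5C encodes a kinesin-1 heavy chain enriched in neurons. Its probe set 203130_s_at was 1 of 2 members called in untreated cells, with 3316, 3661 and 3458 at 3 h and 4837, 5396 and 4585 at 24 h. No arrays overlapped and it rose by 0.50 ± 0.12 (adjusted p = 0.0193), while the 48 h controls were back at 3279, 3974 and 3453. With sarin at 24 h it read 4210, 3966 and 3576, below every control of that time, at -0.33 ± 0.12 (adjusted p = 0.0909). Sarin and untreated cells overlapped at 3 and 48 h. Both 24 h comparisons use the same 3 control arrays, and so are not independent. With the mean of the 3 and 48 h controls in their place, the 24 h sarin arrays were 0.15 higher, so the direction depends on which controls are used. The rise in untreated cells was lost under median centring (0.20, adjusted p = 0.335) and without control replicate 1 at 3 h (0.47, adjusted p = 0.0622) or control replicates 1 (0.52, adjusted p = 0.0521) or 2 (0.44, adjusted p = 0.0882) at 24 h, and its sign turned to -0.30 (adjusted p = 0.423) under spike-in scaling. The dimmer KIF5C probe set, 203129_s_at, had group means from 238 to 446 and no call.

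KLC1 encodes a kinesin light chain, which binds cargo and holds the motor inactive when free of it. Its probe set 213656_s_at read 2108, 1342 and 1337 in untreated cells at 3 h and 2636, 2119 and 2820 at 24 h, and rose by 0.68 ± 0.18 (adjusted p = 0.0375). The highest 3 h array was just under the lowest 24 h array. The call was lost without control replicate 2 or 3 at 3 h or 1 or 3 at 24 h (0.57 to 0.64, adjusted p from 0.0923 to 0.126), under quantile normalization (0.70, adjusted p = 0.0736) and under median centring (0.38, adjusted p = 0.225). It was also lost with array weights (0.43, adjusted p = 0.101), with no trend (adjusted p = 0.0583) and on the 6 arrays compared alone (adjusted p = 0.134), and held in 9 of 19 alternatives. Its sign turned to -0.12 under spike-in scaling (adjusted p = 0.773). At 24 h sarin and control arrays of all 3 KLC1 probe sets overlapped, with changes of -0.07 to 0.07.

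At 48 h the KLC1 probe sets differed in size of change. The arrays of 212877_at read 1478, 1476 and 1420 in controls and 215, 250 and 309 with sarin, which was not above background on any sarin array. The mean was therefore at least 3.36-fold lower with sarin (258 ± 47.6 SD measured, against 1458 ± 33.1, adjusted p = 3.63e-09). The arrays of 212878_s_at read 2158, 1446 and 1444 in controls and 428, 425 and 45 with sarin, of which 2 were above background. It was lower with sarin (adjusted p = 4.54e-05), and the fitted change of -2.87 ± 0.49 takes in the array at 45, without which it was -1.92 (adjusted p = 2.15e-06). With that array set at its background the mean was at least 3.73-fold lower. The third, 213656_s_at, read 2376, 1995 and 2006 in controls and 2034, 1773 and 1370 with sarin, at -0.31 ± 0.18 (adjusted p = 0.139).

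KIF3A encodes a motor subunit of kinesin-2, which carries cargo in axons and into cilia. Its probe set read 722, 608 and 576 in the 24 h controls and 501, 535 and 508 with sarin, with no overlap and a change of -0.29 ± 0.26 that did not pass (adjusted p = 0.518). At 48 h it was at -0.57 ± 0.26 (adjusted p = 0.0535) with overlapping arrays.

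KIF1B encodes a kinesin-3 motor that carries mitochondria and synaptic vesicle precursors, and lies in a region of chromosome 1 often lost in neuroblastoma. At 24 h its probe set read 895, 1132 and 1185 in controls and 528, 571 and 523 with sarin. The groups stood apart, and the change of -0.96 ± 0.47 did not pass (adjusted p = 0.211). It was called in 2 of 20 alternatives, on the 6 arrays compared alone (adjusted p = 0.00441) and with array weights (adjusted p = 0.0144). At 48 h it read 1055, 1477 and 1466 in controls and 140, 667 and 138 with sarin, where 1 of 3 sarin arrays was above background. It was lower with sarin (adjusted p = 0.000179), and with the other 2 arrays set at their background the mean was at least 2.6-fold lower. The fitted change of -2.39 ± 0.47 rests on signals below background, and was -3.10 without sarin replicate 2, the 1 array above it.

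**Figure D2:**
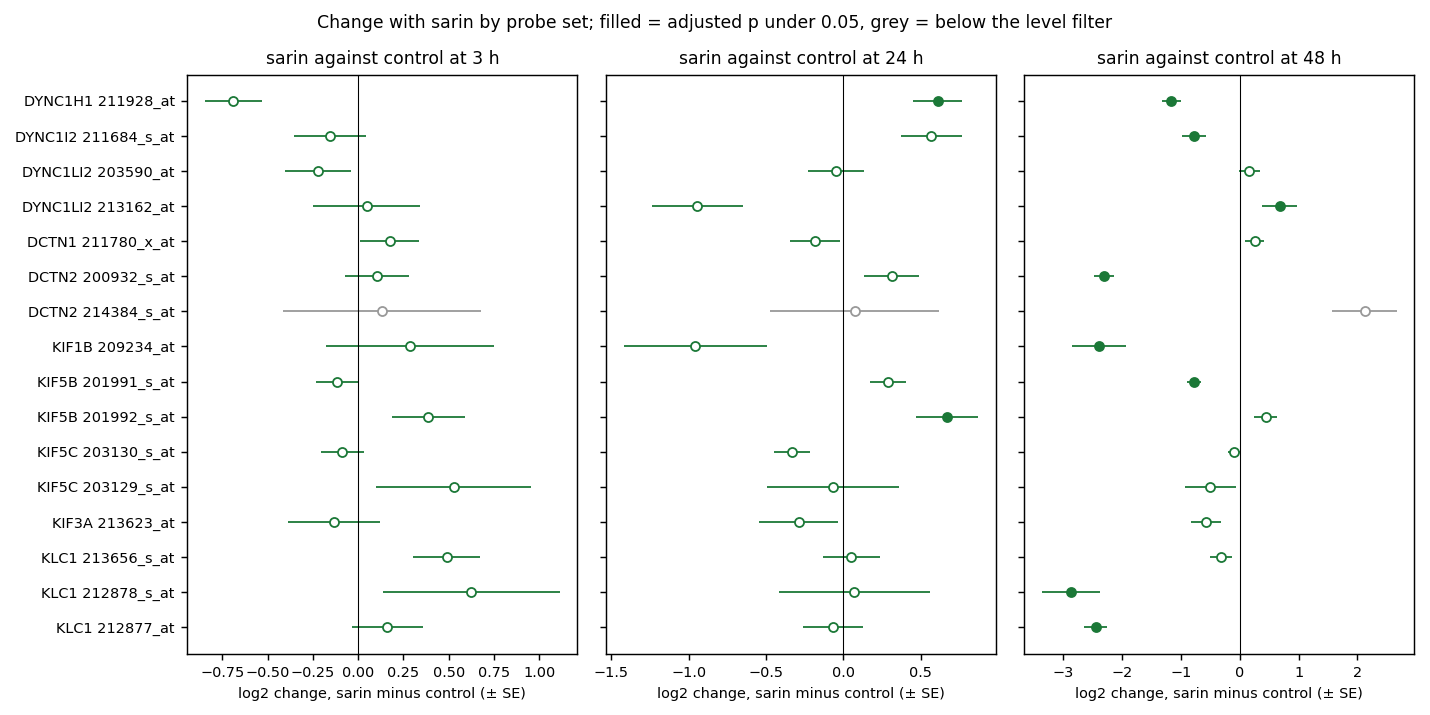
Log2 change with sarin against untreated cells at 3, 24 and 48 h for the 16 member probe sets, with SE bars, filled where the adjusted p was under 0.05 and grey for the probe set below the level filter, and with a separate axis range for each time. At 24 h the filled points are DYNC1H1 at 0.61 and KIF5B 201992_s_at at 0.67, and at 48 h 8 points are filled, 7 of them below 0.

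Counted over the 15 tested members, 0 were called at 3 h and 2 had an unadjusted p under 0.05 (DYNC1H1 and KLC1 213656_s_at). Over all probe sets 0% were called at 3 h as well, and 1141 had an unadjusted p under 0.05. Arrays did not overlap for 2 members with sarin high (KIF5B 201992_s_at and KLC1 212878_s_at) and 1 with sarin low (DYNC1H1), against 14.1% of all probe sets (7.86% and 6.27%). The members' median change was 0.10 and that of all tested probe sets 0.01. At 24 h 2 members were higher and 0 lower, against 7.16% of all probe sets called (3.42% higher and 3.74% lower), with medians of -0.05 and -0.09. Arrays did not overlap for 4 members with sarin high and 5 with sarin low, against 38.9% of all probe sets (15.6% and 23.3%). Those high were DYNC1H1, DYNC1I2 and both of KIF5B. Those low were DYNC1LI2 213162_at, DCTN1, KIF1B, KIF5C 203130_s_at and KIF3A. Centring each array on its median moved the median of all probe sets at 24 h from -0.09 to 0.17 and the share of higher among called probe sets from 47.7% to 88.9%. It gave 4 member calls, all higher (DYNC1H1, DYNC1I2 and both of KIF5B), whereas under quantile normalization 1 was called, KIF5C 203130_s_at, and it was lower (-0.45, adjusted p = 0.0339).

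At 48 h 1 member was higher and 7 were lower, against 68.7% of all probe sets called (33% higher and 35.6% lower). Arrays did not overlap for 0 members with sarin high and for the 7 that were lower, against 68.8% of all probe sets (34.2% and 34.6%). The members' median was -0.57 and that of all tested probe sets -0.03. Calls at 48 h rest on the 3 sarin arrays that stood apart, and there is no 48 h sarin value without them. Without those arrays in the fit the 24 h comparison called 4 members, DYNC1H1 (adjusted p = 0.0202), KIF5B 201992_s_at (adjusted p = 0.0241), DYNC1I2 (adjusted p = 0.0486) and, lower, DYNC1LI2 213162_at (adjusted p = 0.0334). The DYNC1H1 interaction then had an adjusted p of 0.00645, and 0 members were called at 3 h.

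In untreated cells 2 members were higher at 24 h than at 3 h (KIF5C 203130_s_at and KLC1 213656_s_at) and 0 lower, against 5.26% of all probe sets called (3.23% higher and 2.04% lower). Other scalings turned the direction. Median centring called 0 members higher and 2 lower, DCTN2 200932_s_at and KIF5B 201992_s_at, and spike-in scaling 0 higher and 4 lower, those probe sets with DYNC1I2 and KIF5B 201991_s_at. The share of higher among all called probe sets went from 61.3% to 10.4% and 0.43%, and the median of all probe sets from 0.10 to -0.20 and -0.69. The ACTB 3′ over 5′ ratio was 0.79 to 1.14 in untreated cells at 3 h and 1.46 to 1.5 at 24 h, and the median signal 310.2 to 339.2 and 397 to 413.9. Their part in these calls was not tested. Arrays did not overlap for 4 members with 24 h high and 2 with 24 h low, against 25.3% of all probe sets (16.5% and 8.79%). At 48 h against 3 h 0 members were called in limma and 4 had an unadjusted p under 0.05, against 0.323% of all probe sets called (0.175% higher and 0.149% lower) and 1379 with an unadjusted p under 0.05. Arrays did not overlap for 0 members with 48 h high and 1 with 48 h low, KIF5B 201992_s_at, against 17.1% of all probe sets (10.5% and 6.59%). Array weights called 1 member and spike-in scaling 8 in that comparison.

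The other genes of the transport machinery were read by the brightest probe set of each gene. At 3 h 0 of them were called in any of the lists. At 24 h 3.4% of all 8054 genes read in this way were called higher and 3.99% lower. Of 6 other dynein subunits 1 was higher, DYNLL1, a light chain that also joins other complexes. It was at 17140 ± 614 (SD) with sarin and 9999 ± 4052 without, a rise of 0.85 ± 0.25 (adjusted p = 0.0458). The call held in 19 of 31 alternatives. For these other genes the alternatives also leave out single arrays of 3 and 48 h. Such fits keep the 24 h change as it is, so the counts cannot be set against those of the members. Without control replicate 2 at 24 h the value was 0.57 (adjusted p = 0.244), and the call was also lost without 7 other single arrays (0.83 to 0.87, adjusted p from 0.0555 to 0.129). Of 8 other dynactin subunits 0 were called at 24 h and 0 had an unadjusted p under 0.05. The smallest p was that of DCTN6 at 0.30 ± 0.15 (adjusted p = 0.212). Of 12 dynein regulators and adaptors 0 were called and 1 had an unadjusted p under 0.05, CLIP1, a microtubule plus-end protein, at -0.74 ± 0.31 (adjusted p = 0.15). It was called in 2 of 30 alternatives.

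Of 9 other transport kinesins 1 was lower at 24 h, KIF13A, a kinesin-3 motor of endosomes, at 194 ± 50.7 with sarin and 473 ± 22.9 without (-1.24 ± 0.27, adjusted p = 0.00928). Of 13 kinesin adaptors 2 were lower, both of the FEZ family, which link kinesin-1 to cargo. FEZ1, the neuronal member, fell by 1.13 ± 0.21 from 1538 ± 173 to 696 ± 90.4 (adjusted p = 0.00304). It was called in 30 of 31 alternatives, counted as for DYNLL1 and so not comparable with the members' counts. FEZ2 fell by 0.55 ± 0.14 (adjusted p = 0.0223) and was called in 25 of 31, with -0.28 (adjusted p = 0.249) under median centring. The FEZ2 call was lost without control replicate 2 or 3 or sarin replicate 2 or 3 (-0.55 to -0.47, adjusted p from 0.0544 to 0.118). KIF13A was lost against the 3 and 48 h controls (-0.48, adjusted p = 0.199), without sarin replicate 1 (-1.11, adjusted p = 0.0564) and under spike-in scaling (-1.21, adjusted p = 0.248). Of 12 mitotic kinesins 1 was higher, KIF20A, which acts in cytokinesis, at 0.60 ± 0.15 (adjusted p = 0.0201). Its call was lost in 6 of 31 alternatives, against the 3 and 48 h controls among them, where it was 0.14 (adjusted p = 0.548), and without control replicate 2 (0.47, adjusted p = 0.124) or sarin replicate 1 or 3 (0.56 and 0.57, adjusted p = 0.0899 and 0.0616). The medians of the lists at 24 h were -0.22 for dynein, -0.03 for dynactin, -0.13 for regulators, -0.02 for kinesins, -0.24 for adaptors and 0.11 for mitotic kinesins, beside -0.09 for all probe sets tested.

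**Figure D3:**
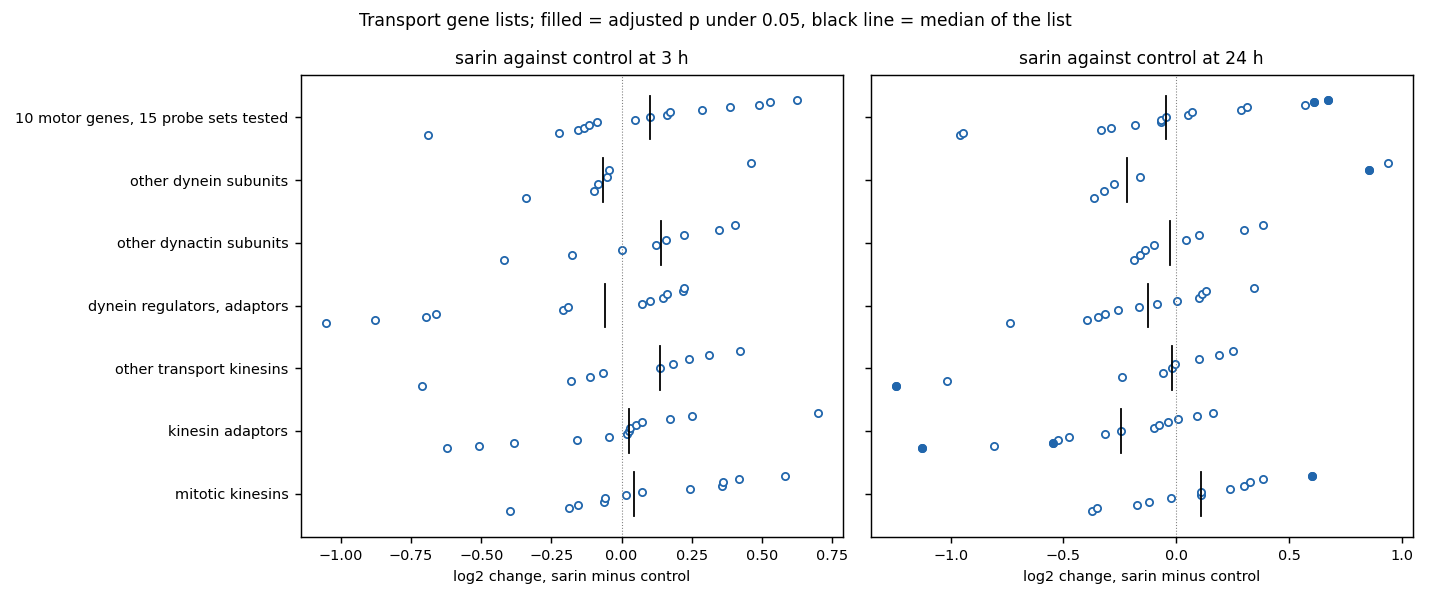
Log2 change with sarin at 3 and 24 h for the 15 tested member probe sets and for the 6 lists of other motor and adaptor genes, 1 point per probe set or gene, filled where the adjusted p was under 0.05 and with a black line at each median. No point is filled at 3 h. At 24 h the lowest filled points are KIF13A at -1.24 and FEZ1 at -1.13, and the highest filled point is DYNLL1 at 0.85.

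At 48 h, on the sarin arrays that stood apart, 35.1% of all 8054 genes read by their brightest probe set were higher and 34.6% lower. On these arrays the summed noradrenergic markers ran from 57300 to 67300 against 114200 to 119500 in controls (7 of 13 tested lower, 1 higher). The summed substrate-adherent markers ran from 29450 to 33150 against 66110 to 89970 (4 of 11 tested lower, 4 higher). The summed glial markers ran from 4383 to 5895 against 1440 to 1838 (3 of 3 tested higher). Of 8 glial markers, 4 to 5 exceeded background per sarin array against 5 to 6 per control, and S100B did so on no array. Background itself was 410.7 to 443.2 with sarin against 103.1 to 161.1 in controls, and its part in the glial sum was not tested. The part of the marker sums in the list counts was not tested. Of the 6 other dynein subunits 4 fell and 0 rose, among them DYNLT1, a light chain, at 3097 ± 266 with sarin and 11410 ± 1030 without (-1.88 ± 0.12, adjusted p = 1.81e-10), and DYNLL1 at -1.59 ± 0.25 (adjusted p = 2.08e-05). Of the 8 other dynactin subunits 6 fell and 1 rose, with CAPZA2, a capping protein subunit, at -2.18 ± 0.18 (adjusted p = 5.35e-09) and DCTN5 at 0.59 ± 0.20 (adjusted p = 0.0145). The transport kinesins were divided, with 4 higher and 2 lower of 9. KIF1A, the neuronal kinesin-3 motor of synaptic vesicle precursors, rose by 1.54 ± 0.19 (adjusted p = 1.46e-06), KIF5A, a neuronal kinesin-1 heavy chain, rose by 1.69 ± 0.33 (adjusted p = 0.000186), and KIFAP3, the accessory subunit of kinesin-2, fell by 1.98 ± 0.28 (adjusted p = 5.54e-06). KIF13A, lower at 24 h, was 1.31 ± 0.27 higher at 48 h (adjusted p = 0.000278). Its mean level with sarin at 24 h was under the background of the 48 h sarin arrays, and the part of background in this rise was not tested. Of the regulators 4 rose and 4 fell of 12, of the adaptors 6 rose and 3 fell of 13, and of the mitotic kinesins 3 rose and 5 fell of 12. The medians were -1.30 for dynein, -0.94 for dynactin, -0.0011 for regulators, 0.09 for kinesins, 0.19 for adaptors and -0.08 for mitotic kinesins. Quantile normalization moved the median of all probe sets at 48 h from -0.03 to -0.24, median centring to -0.52 and spike-in scaling to -2.02, so the directions at 48 h are relative to the deposited scale. They also differ with level, since the median was 0.57 with no level filter, where 64.5% of called probe sets were higher, and -0.36 among the upper 40% by level, where 35.8% were higher.

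The genes whose pattern lay nearest to DYNC1H1 over the 15 arrays outside the 48 h sarin group were PSMA1, a proteasome subunit gene, H2BC5, a histone gene, and CTTN, which encodes the actin-binding protein cortactin, at Pearson r of 0.91, 0.905 and 0.892 among 8053 genes. PSMA1 was at 6093 ± 889 in the 24 h controls and 7757 ± 1139 with sarin. KIF5B was read here by its brighter probe set, 201991_s_at, and those nearest to it were AEN, HNRNPA2B1 and C11orf58 at 0.902, 0.875 and 0.87. These values are descriptions over arrays that share a scaling and 5 groups.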

How the data were processed

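The authors deposited linear signal intensity for each array, computed with MAS5 according to the submitters' processing notes. A version and a scaling target of MAS5 are not given in the sources used. The mean signal after trimming was 800.1 to 800.3 on every array. Gene symbols come from the platform's annotation, and 1043 probe sets with several symbols were not used. Values were analysed as log2(signal + 16), which understates changes of low genes. Probe sets in the upper 60% by mean level were tested in limma 3.58.1 under R 4.3.3, with group means of 18 arrays, lmFit and a trended eBayes (residual degrees of freedom 12, prior 7.113), two-sided, with Benjamini-Hochberg adjustment. The number of arrays limits the precision.

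Members, gene lists and tests were chosen with earlier results of these data known. Named were all members, and of the other transport genes those called with sarin or, where a list had none at 24 h, the gene with the smallest p. Not every such gene at 48 h is named. A probe set at or below the bacterial background on all 3 arrays of a group has only a bound. There the brighter group's mean on the log2 scale was set against the higher of the background and the probe set's own value on each array, as was done for KIF1B and KLC1 212878_s_at, dim on some arrays. Alternatives were other pseudocounts, filters, scalings, probe set summaries, limma settings, arrays in the fit, leaving out each array and a replicate block. For the members, only arrays of the groups compared were left out singly, and for the other transport genes any array. The use of other controls was chosen after seeing the data.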

Additional observations from a re-analysis of the deposited data

Results flagged for a closer look

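The sarin effect on DYNC1H1, the dynein heavy chain gene, differed between 24 and 3 h in the interaction test (limma, adjusted p = 0.00921), with every sarin array below its controls at 3 h and above them at 24 h. Arrays were apart in opposite directions at these times for 1 of the 15 members and for 1.7% of all 11439 tested probe sets.

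For 4 probe sets the arrays of sarin-exposed and untreated cells were apart in opposite directions at 2 times. Over all 11439 tested probe sets 20.7% did so between 24 and 48 h, where 3 of the 15 members did, and 6.23% between 3 and 48 h, where 1 did. Between 24 and 48 h the sarin effect differed by -1.77 on the log2 scale for DYNC1H1, by -1.35 for DYNC1I2 and by -1.07 for KIF5B 201991_s_at, and between 3 and 48 h by -3.49 for KLC1 212878_s_at, whose 48 h value takes in 1 sarin array below background. These differences were not tested, and each rests on the 48 h sarin arrays that stood apart.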

How the results depend on the processing

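Members called with sarin at 24 h numbered 2, and 1 with no level filter, with 1 probe set per gene or under quantile normalization. They numbered 4 under median centring, 0 under spike-in scaling, 5 in a fit on the 6 arrays, 4 without the 48 h sarin arrays, 7 with array weights, and 0 to 2 with single arrays left out. The directions were not the same throughout, since the 2 were both higher. On the 6 arrays 3 were higher and 2 lower, without the 48 h sarin arrays 3 and 1, with array weights 4 and 3, and with no trend 1 and 1. The 1 under quantile normalization was KIF5C 203130_s_at, which was lower. Over all probe sets the 819 calls at 24 h became 424 under quantile normalization, 1450 under median centring, 38 under spike-in scaling, 2063 on the 6 arrays, 1379 without the 48 h sarin arrays, 2735 with array weights and 229 to 549 with single arrays left out. At 48 h 8 members became 5 with 1 probe set per gene, 15 under spike-in scaling and 7 to 10 with single arrays left out. In untreated cells at 24 against 3 h 2 became 1 under quantile normalization or with no trend, 4 under spike-in scaling, without the 48 h sarin arrays or with array weights, 0 on the 6 arrays, and 0 to 4 with single arrays left out. The 2 were higher, but the 4 under spike-in scaling and the 2 under median centring were all lower and were other probe sets. At 48 against 3 h 0 became 8 under spike-in scaling and 1 with array weights. For the difference between 24 and 3 h 1 became 0 under spike-in scaling and 2 with array weights. At 3 h the count was 0 throughout. Signs turned under spike-in scaling for DYNC1LI2 213162_at at 48 h (-1.29) and, in untreated cells at 24 against 3 h, for KIF5C 203130_s_at (-0.30) and KLC1 213656_s_at (-0.12). The cause was not tested. Of 35 uncalled member values in the sarin comparisons, 19 turned sign and 13 were called in at least 1 alternative.

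Control and sarin arrays of the same number and time did not deviate together (correlations of -0.17 to 0.02), so the numbers do not pair them within a time. Same-numbered arrays of different times were not compared, so pairing across times was not tested. With the replicate block 1 member was called at 24 h, since KIF5B 201992_s_at had an adjusted p of 0.0533 in limma, and 785 of all probe sets. The block ended no other call among the members.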

Other observations

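A probe set annotated to both DCTN1 and SLC4A5, 201082_s_at, lay outside the rule. It read 1072 ± 98.2 (SD, n = 3) in untreated cells at 24 h and 1350 ± 115 with sarin. At 48 h the untreated cells were at 957 ± 51.4. The sarin arrays of that time read 50.1 to 133.3, below their background of 410.7 to 443.2, so their level has only an upper bound. At both times the direction was opposite to that of the DCTN1 probe set, which was at -0.19 and 0.26, neither called.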
